A study of Mus musculus with 20 samples.

Results

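T cell and natural killer (NK) cell genes were examined in splenic B cell preparations. The list held 35 genes, chosen by name as T cell or NK cell genes: surface molecules of T cells, proximal signalling proteins, lineage transcription factors, NK cell receptors, and granule proteins with a chemokine. Of these, 33 had a probe set on the array, of 19938 genes with one in all, and Lck and Tcf7 were not analysed here. Each of the 33 was read by 1 probe set. A filter on dim probe sets passed 32 of the 33, of 11968 genes tested, and Klre1, an NK cell lectin-like receptor whose values lay between 4.82 and 6.01, did not pass.

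RNA was measured on 20 arrays in 10 groups of 2. The cells came from C57BL/6 mice of both sexes, 8 to 12 weeks old, whose genotype the labels give as mb-1/TAK1+/+ (here wild type) or mb-1/TAK1f/f (here TAK1-deleted). As written, both genotypes carry mb-1, and the second has floxed alleles of Map3k7, which encodes the kinase TAK1. Spleen cells were depleted of cells bearing CD43 with magnetic beads, cultured in RPMI with 10% serum, and taken unstimulated (0 h) or after 1, 3, 6 or 24 h with 10 µg/ml of anti-IgM, which engages the surface IgM of B cells and thereby their antigen receptor. The mb-1 gene (Cd79a) is expressed in the B lineage. The labels name no deleter, and in which cells TAK1 was lost was not tested. Here TAK1-deleted and without TAK1 name the genotype of the mice, not the state of the cells that express a gene. Every sample at 1, 3, 6 and 24 h had anti-IgM, so its effect and that of time in culture cannot be told apart. The labels do not say whether the 2 samples of a group came from separate mice, so p-values rest on the spread of samples that may be technical repeats.

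T cells recognise antigen through a receptor that signals by way of the CD3 chains, encoded by Cd3d, Cd3e, Cd3g and Cd247. The kinases Lck and Zap70 and the adaptor Lat pass that signal on. NK cells carry lectin-like and immunoglobulin-like receptors in its place, and kill with perforin and granzymes that are stored in granules as they are in cytotoxic T cells. CD43, the target of the depletion, is found on T and NK cells and is largely absent from resting follicular B cells. Some members are not limited to T and NK cells: mouse B cells carry CD2, and Tbx21 and Id2 can be expressed in B cells. These are examples and not a full list, and which cells expressed a member was not tested. In bulk RNA of this kind, fewer cells of a type and less RNA per cell cannot be told apart.

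The 12 pan B markers stood high in every group, with mean log2 values at 0 h of 12.83 and 12.71 in the wild type arrays and 12.76 and 12.64 in the TAK1-deleted arrays. All values in the data ran from 3.64 to 14.68, with a median of 7.45. Averaged over the 33 members, the log2 value was 9.58 and 9.30 in the 2 wild type arrays at 0 h and 8.76 and 8.53 in the 2 TAK1-deleted arrays. The single probe set of Map3k7 read between 10.16 and 10.71 in wild type and between 10.40 and 10.76 in TAK1-deleted arrays. It does not separate the genotypes, and whether it lies in the floxed segment is not given in the sources used here, so it checks no label. Spn, which encodes CD43, read 9.28 and 9.18 in wild type at 0 h and 8.69 and 8.76 in TAK1-deleted cells, a difference of −0.51 ± 0.13 that was not called (limma, adjusted p = 0.053).

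**Figure D1:**
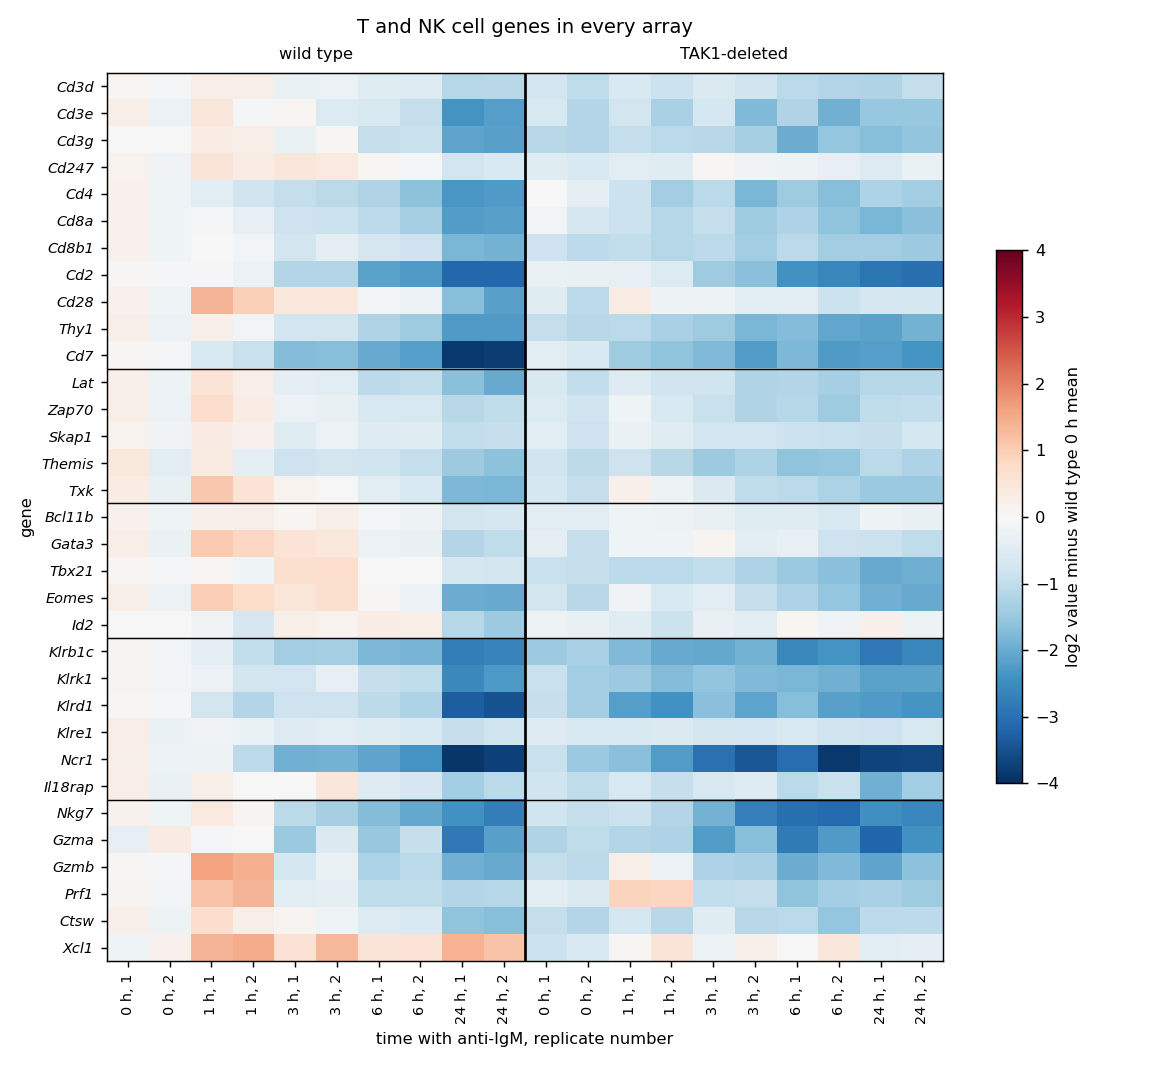
Log2 value of each of the 33 T and NK cell members (rows, grouped by role) in each of the 20 arrays (columns, by genotype and hours of anti-IgM), drawn as the difference from the wild type mean at 0 h on a colour scale from −4 to 4. In wild type at 24 h the group mean was the lowest of the 5 times in 32 of 33 rows, and the TAK1-deleted mean at 0 h was below the wild type mean in 33 of 33.

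The stretches of genome that precede the transcription starts are shown for some of the members, which were picked by hand and not by a rule. They are 3 granule or chemokine genes that rose at 1 h, 3 NK cell genes that were lower in TAK1-deleted preparations or fell over time, and Cd3g. The sequences are RefSeq's for GRCm38.p6, cover the 250 bases before the start, and run 5′ to 3′ on the gene's strand. Capitals mark matches to TGTGGT, the letters bound by RUNX factors, or to TGANTCA, those bound by AP-1, on either strand.
Gzmb (chr14:56262335-56262584, minus strand): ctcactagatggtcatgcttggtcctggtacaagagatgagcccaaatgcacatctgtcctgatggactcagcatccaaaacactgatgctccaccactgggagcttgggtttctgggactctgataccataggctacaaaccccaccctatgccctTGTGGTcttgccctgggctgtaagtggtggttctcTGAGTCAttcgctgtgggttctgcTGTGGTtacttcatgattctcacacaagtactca
Prf1 (chr10:61297586-61297835, plus strand): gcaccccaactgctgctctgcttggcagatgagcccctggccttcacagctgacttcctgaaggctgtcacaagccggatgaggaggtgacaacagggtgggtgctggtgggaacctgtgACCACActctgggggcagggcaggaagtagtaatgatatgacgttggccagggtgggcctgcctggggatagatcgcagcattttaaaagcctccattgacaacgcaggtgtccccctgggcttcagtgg
Xcl1 (chr1:164935523-164935772, minus strand): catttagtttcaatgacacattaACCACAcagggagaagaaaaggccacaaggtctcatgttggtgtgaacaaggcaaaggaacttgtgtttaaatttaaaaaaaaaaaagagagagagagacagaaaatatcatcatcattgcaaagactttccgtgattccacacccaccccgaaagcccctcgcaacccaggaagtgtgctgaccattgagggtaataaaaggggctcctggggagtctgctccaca
Klrb1c (chr6:128788642-128788891, minus strand): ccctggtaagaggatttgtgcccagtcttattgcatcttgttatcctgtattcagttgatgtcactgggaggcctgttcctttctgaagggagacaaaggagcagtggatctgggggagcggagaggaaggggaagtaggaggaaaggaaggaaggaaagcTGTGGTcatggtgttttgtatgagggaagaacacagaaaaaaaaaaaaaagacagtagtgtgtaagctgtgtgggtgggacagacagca
Klrk1 (chr6:129623865-129624114, minus strand): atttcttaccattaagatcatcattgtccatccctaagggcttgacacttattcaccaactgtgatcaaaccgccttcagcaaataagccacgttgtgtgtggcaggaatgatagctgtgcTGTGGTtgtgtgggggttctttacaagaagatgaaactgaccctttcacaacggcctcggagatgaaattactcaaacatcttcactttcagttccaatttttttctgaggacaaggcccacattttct
Nkg7 (chr7:43436888-43437137, plus strand): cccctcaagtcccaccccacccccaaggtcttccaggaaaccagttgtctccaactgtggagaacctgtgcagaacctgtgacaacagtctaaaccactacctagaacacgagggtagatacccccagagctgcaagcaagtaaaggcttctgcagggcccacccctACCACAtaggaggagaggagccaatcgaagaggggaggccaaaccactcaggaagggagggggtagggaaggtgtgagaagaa
Cd3g (chr9:44980432-44980681, minus strand): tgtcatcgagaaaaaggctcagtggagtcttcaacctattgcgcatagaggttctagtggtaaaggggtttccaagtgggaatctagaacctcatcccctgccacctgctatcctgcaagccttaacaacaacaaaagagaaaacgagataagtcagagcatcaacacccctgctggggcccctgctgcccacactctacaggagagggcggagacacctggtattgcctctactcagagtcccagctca
The Gzmb window holds the AP-1 letters from −58 to −52, counted from the start site, and the RUNX letters from −93 to −88 and from −34 to −29, and none of these overlap. The other matches are RUNX letters, at −130 to −125 for Prf1, −227 to −222 for Xcl1, −89 to −84 for Klrb1c, −129 to −124 for Klrk1 and −83 to −78 for Nkg7. The Cd3g window holds no match. RefSeq windows were matched for 24 of the 33 members. Of these 24, 11 held TGTGGT (45.8%), a smaller share than among the windows printed. TGTGGT was found in 9 of the 13 NK cell members with a window (69.2%: Klrb1c, Klrk1, Klre1, Ncr1, Nkg7, Gzma, Gzmb, Prf1 and Xcl1), in 2 of the 11 T cell members (18.2%: Zap70 and Txk) and in 15.9% of 27025 genes. The NFAT core GGAAAA was found in 3 of 24 members (12.5%, against 22.9% of all genes), the AP-1 letters in 1 (4.17%, against 7.82%) and the NF-κB letters, GGG and TTTCC with 2 bases between them, in none of 24 (against 1.65%). The motifs were chosen after the expression values were seen. A match describes the letters in the window, not a bound site.

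In unstimulated cells the T and NK cell genes were lower in TAK1-deleted than in wild type preparations. Of the 32 members tested, 15 were called lower and none higher, where 0.819% of all genes tested were called lower, 1.5% higher and 2.32% in either direction (limma, adjusted p below 0.05 over all genes). At an unadjusted p below 0.05, 29 were lower and none higher. Klrb1c and Il18rap, both among the 15, passed the filter on dim probe sets through wild type arrays alone (3 and 6 arrays). With the filter on the mean over all arrays 12 of 29 members tested were called lower. The median difference over the members was −0.88, against 0.01 over all genes, and the group mean was lower in 33 of 33 members. The called genes were spread over the roles, with 4 of 11 T cell surface molecules, 2 of 5 signalling proteins, 2 of 5 transcription factors, 4 of 5 NK receptors and 3 of 6 granule genes.

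Klrb1c, which encodes the NK1.1 receptor, showed the largest difference, and it passed the filter through 3 wild type arrays alone. It read 8.37 and 8.17 in the wild type arrays and 6.83 and 6.97 in the TAK1-deleted ones, a difference of −1.37 ± 0.17 (2.59-fold lower, adjusted p = 0.000156). Cd3g, a chain of the CD3 complex, read 10.54 and 10.52 against 9.43 and 9.35, a difference of −1.14 ± 0.15 (adjusted p = 0.000227). The arrays of the genotypes did not overlap for either gene.

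Klrd1, which encodes CD94, the partner chain of NKG2 receptors, read 9.65 and 9.56 in wild type and 8.70 and 8.26 without TAK1, a difference of −1.13 ± 0.20 (adjusted p = 0.00381). Klrk1, the activating receptor NKG2D, differed by the same −1.13 ± 0.20. Gzmb, the protease granzyme B, read 8.79 and 8.71 against 7.78 and 7.69 (−1.01 ± 0.18, adjusted p = 0.00489). Tbx21, which encodes T-bet, a transcription factor of type 1 helper T cells and NK cells, read 9.61 and 9.44 against 8.62 and 8.60 (−0.91 ± 0.12, adjusted p = 0.000334). By cell type, 6 of 18 T cell members and 9 of 14 NK cell members were called lower, and a difference between these shares was not tested. Cd3d, the CD3 δ chain, differed by −0.90 ± 0.13, and Thy1, a surface glycoprotein of T cells, by −1.03 ± 0.19. Cd3e, which lies next to Cd3d on chromosome 9, read 11.45 and 10.95 against 10.55 and 10.01, a difference of −0.92 ± 0.34 that was not called. With the replicate number as a block it was called (limma, adjusted p = 0.00357, range over the alternatives 0.00357 to 0.835).

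The 4 members with the smallest differences at 0 h were Cd4 (−0.19 ± 0.24), Id2 (−0.26 ± 0.17), Cd2 (−0.29 ± 0.13) and Cd8a (−0.39 ± 0.21), and none of them was called. Cd4 and Cd8a encode the coreceptors of helper and cytotoxic T cells, and Id2 an inhibitor of E proteins that NK cells need. Cd8b1, which encodes the other chain of CD8, was called lower at 0 h, with means of 8.97 in TAK1-deleted and 9.91 in wild type cells. In wild type at 0 h replicate 1 read above replicate 2 in 30 of 32 members, by a median of 0.33 (0.16 over all genes), and in TAK1-deleted cells in 29 of 32, by a median of 0.23 (0.16 over all genes). The count at 0 h depended on single arrays and on the pairing: it was 4 without wild type replicate 1, 5 without TAK1-deleted replicate 2, and 28 with the replicate number as a block. Cd3d, Cd3g, Tbx21 and Klrb1c were called with each of the 4 arrays left out in turn.

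Further T and NK cell genes, not on the list of 35, differed at 0 h in 2 of 16 T cell genes and 4 of 12 NK cell genes tested, all lower. Among them were Cd96, a receptor of T and NK cells (−1.38), Prkcq, the kinase PKCθ of the T cell receptor pathway (−0.92), Klra8, the Ly49H receptor (−1.40 ± 0.23), and Il2rb, a chain of the receptors for interleukins 2 and 15 (−1.09). Genes of other cells also differed between the genotypes at 0 h. All 11 erythroid genes were higher in TAK1-deleted cells, with list means of 10.22 and 9.79 against 8.02 and 8.03, and 3 of 7 plasma cell genes were lower (8.93 and 8.74 against 10.08 and 9.91). The largest of these plasma cell differences was that of Jchain (−5.31), followed by Derl3 (−1.11). Of 13 neutrophil genes 3 were higher and 1 lower, led by Mpo, the granule enzyme myeloperoxidase (1.81), and Elane, neutrophil elastase (1.40), and of 8 dendritic cell genes 1 was higher, Siglech, a receptor of plasmacytoid dendritic cells (0.94). Of 3 basophil or mast cell genes 1 was lower. Of 13 monocyte or macrophage genes and of 12 pan B genes none was called, with 0 and 1 at an unadjusted p below 0.05. Monocyte or macrophage means were 11.05 and 10.96 without TAK1 and 10.99 and 11.10 in wild type. The part of these cells in the difference in T and NK cell genes was not tested.

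**Figure D2:**
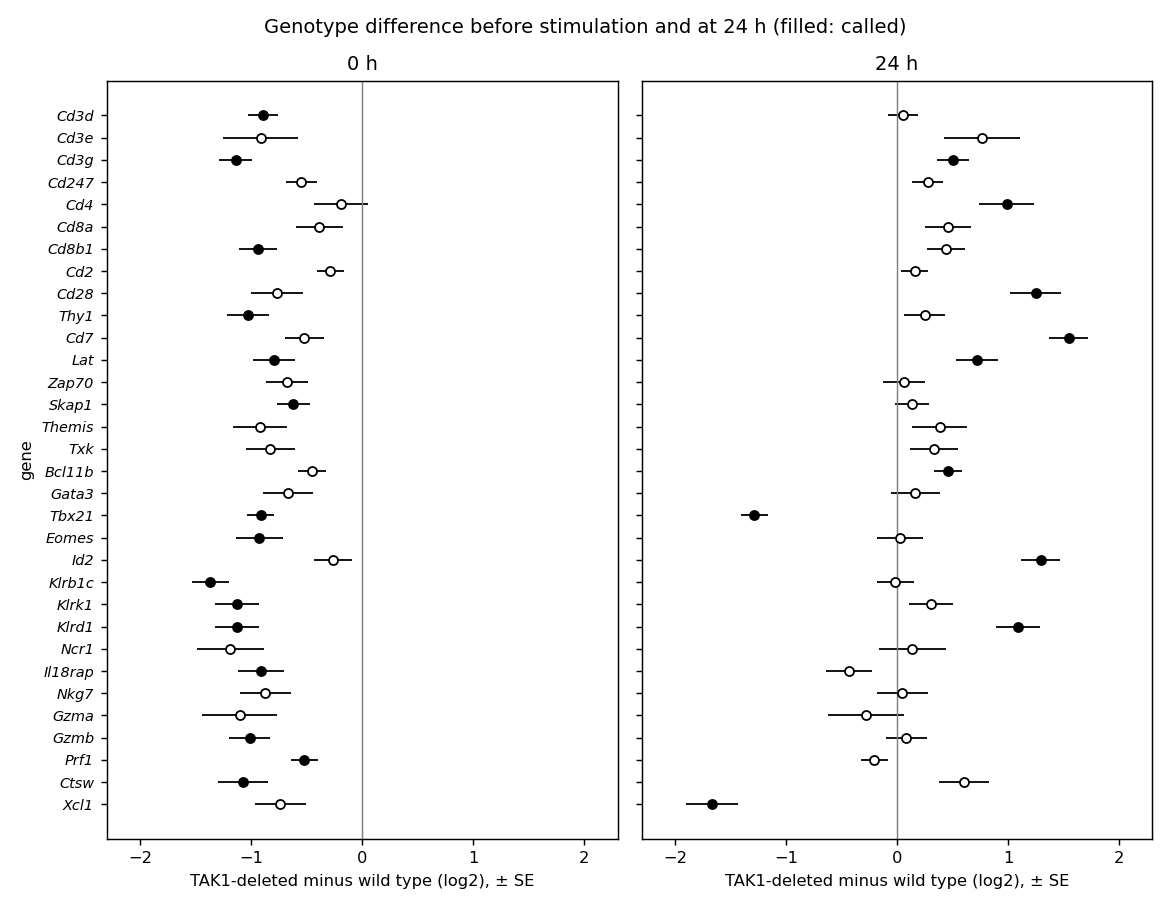
Difference in log2 value between TAK1-deleted and wild type cells for each of the 32 members tested, at 0 h and at 24 h, with bars of 1 standard error from limma. Filled points were called. Every point at 0 h lies below 0, while at 24 h Cd7, Id2, Cd28 and Klrd1 lie above 1 and Xcl1 and Tbx21 lie below −1.

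After 1 h of anti-IgM, 3 of the 6 granule and chemokine genes, Gzmb, Prf1 and Xcl1, had risen in both genotypes. In wild type cells 7 of 32 members rose, where 10.6% of all genes were called higher, and 3 fell, where 13.9% were called lower. In either direction 31.2% of the members were called, near the 24.5% of all genes. In TAK1-deleted cells 5 rose and 4 fell (9.1%, 10.2% and 19.3% of all genes). The 5 genes that rose in both genotypes were Gzmb, Prf1, Xcl1, Cd28 and Txk, and the 3 that fell in both were Cd7, Klrb1c and Klrd1. With the replicate block the counts were 18 in wild type and 15 in TAK1-deleted cells.

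Gzmb rose from 8.79 and 8.71 to 10.36 and 10.18 in wild type (1.52 ± 0.18, adjusted p = 1.33e-05) and from 7.78 and 7.69 to 8.97 and 8.52 in TAK1-deleted cells (1.01 ± 0.18, adjusted p = 0.000823). Prf1, which encodes perforin, rose from 9.22 and 9.01 to 10.27 and 10.46 in wild type (1.25 ± 0.12, adjusted p = 1.71e-06). In TAK1-deleted cells it rose from 8.66 and 8.52 to 10.02 and 9.96 (1.40 ± 0.12, adjusted p = 6.75e-07). Both rises were brief: at 3 h Prf1 was below its 0 h level in both genotypes (−0.38 ± 0.12 and −0.43 ± 0.12), and Gzmb was below it in wild type (−0.49 ± 0.18).

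Xcl1, the chemokine lymphotactin, rose at 1 h from 8.64 and 8.98 to 10.16 and 10.29 in wild type (1.41 ± 0.23) and from 7.96 and 8.19 to 8.86 and 9.33 in TAK1-deleted cells (1.02 ± 0.23). Cd28, the costimulatory receptor of T cells, rose from 9.30 and 8.96 to 10.50 and 10.10 in wild type (1.17 ± 0.23, adjusted p = 0.00142) and by 0.82 ± 0.23 without TAK1 (adjusted p = 0.0198). Txk, a Tec family kinase of T and NK cells, rose by 0.81 ± 0.22 and 0.82 ± 0.22. Of the other granule genes, Gzma (granzyme A) changed by −0.04 ± 0.34, Nkg7 (a granule membrane protein) by 0.24 ± 0.23 and Ctsw (cathepsin W) by 0.48 ± 0.23 in wild type, and none of these was called, though Ctsw was with the replicate block. Eomes and Gata3, transcription factors of NK and cytotoxic T cells and of helper T cells, rose in wild type (0.85 ± 0.21 and 0.94 ± 0.22) and read 0.54 ± 0.21 and 0.50 ± 0.22 without TAK1, where neither was called, though both were with the block.

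The change at 1 h was not called different between the genotypes for any of the 32 members, and 0 had an unadjusted p below 0.05, where 0.109% of all genes were called (limma). For Gzmb the difference in change was −0.51, with a 95% interval of −1.06 to 0.04, and for Prf1 it was 0.15 (−0.22 to 0.52). In level, 25 of 32 members were lower in TAK1-deleted cells at 1 h, where 2.21% of all genes were called lower and 4.28% in either direction. The median difference was −1.05. Gzmb was 2.87-fold lower (−1.52 ± 0.18) and Ctsw lower by −1.40 ± 0.23. Klrb1c and Il18rap, both among the 25, passed the filter on dim probe sets through wild type arrays alone. With the filter on the mean over all arrays 21 of 29 members tested were called lower at 1 h. The count was 12 without wild type replicate 1 and 14 without TAK1-deleted replicate 2 at 1 h. In 11 genes, among them Cd3d, Cd3g, Cd247, Tbx21, Klrd1 and Gzmb, the call held with each of the 4 arrays left out.

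**Figure D3:**
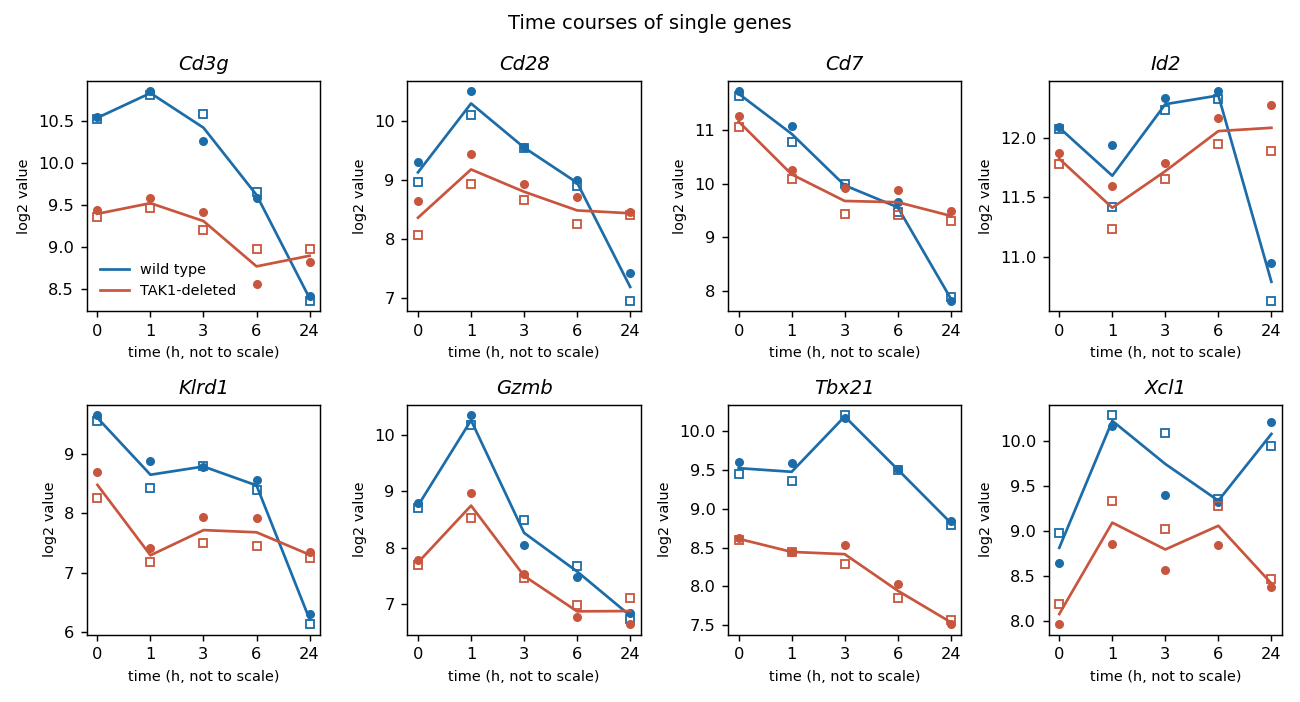
Log2 value of 8 members in every array against hours of anti-IgM, by genotype, with a line through the mean of the 2 arrays of each group. Gzmb peaks at 1 h in both genotypes, Tbx21 rises at 3 h in wild type, and by 24 h the TAK1-deleted arrays of Cd28, Cd7, Id2 and Klrd1 lie above the wild type arrays.

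Falls outnumbered rises at 3 h and 6 h. In wild type cells 15 were below their 0 h level at 3 h and 4 above it (of all genes, 23.2% were called lower, 20.9% higher and 44.1% in either direction), and 22 were below it at 6 h (19.1% of all genes called lower, 43.2% in either direction). In TAK1-deleted cells 11 were below and 2 above at 3 h (22.1%, 19.6% and 41.7% of all genes), and 17 below and 1 above at 6 h (17.3%, 18.5% and 35.8%). The share of members called there at 3 h, 40.6%, was near that of all genes. From 0 h to 6 h the wild type mean of the members went from 9.44 to 8.60. That of monocyte or macrophage genes went from 11.04 to 8.14, and that of dendritic cell genes from 9.86 to 7.84. The mean of 4 type 2 innate lymphoid genes rose, from 7.12 to 7.57. At 6 h 16 members had fallen in both genotypes, and the share of all genes that did so is not given here. The wild type count at 3 h, 19 in both directions, was 11 without wild type replicate 1 at 3 h.

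Cd2, an adhesion molecule of T cells, fell at both times in both genotypes. In wild type it started at 11.89 and 11.81, reached 10.66 and 10.69 by 3 h, and had dropped to 9.72 and 9.58 by 6 h. In TAK1-deleted cells the same times gave 11.57 and 11.55, then 10.42 and 10.16, then 9.42 and 9.25. Its change at 6 h was −2.20 ± 0.13 and −2.23 ± 0.13, and the difference between these changes, −0.03 ± 0.18, was not called. Ncr1, the NK receptor NKp46, read 10.34 and 9.89 at 0 h and 8.01 and 7.74 at 6 h in wild type (−2.24 ± 0.30), and 9.22 and 8.63 against 7.06 and 6.24 without TAK1 (−2.28 ± 0.30). Nkg7 fell by 1.90 ± 0.23 and by 2.19 ± 0.23. Cd4 and Cd7, the second an immunoglobulin-family molecule of T and NK cells, also fell by more than 1 log2 unit in both genotypes by 6 h.

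None of the 5 transcription factors was called below its 0 h level in wild type at 3 h or 6 h. At 3 h in wild type Tbx21 rose from 9.61 and 9.44 to 10.18 and 10.21 (0.67 ± 0.12, adjusted p = 0.000315), and Eomes rose by 0.56 ± 0.21. In TAK1-deleted cells Tbx21 read 8.54 and 8.29 at 3 h (−0.20 ± 0.12 from 0 h, not called) and 8.03 and 7.86 at 6 h, where it had fallen by 0.67 ± 0.12. The difference in the change of Tbx21 at 3 h was −0.87 ± 0.17, which was not called over all genes (limma, adjusted p = 0.0907), and was with the replicate block (adjusted p = 0.00192, range over the alternatives 0.00192 to 0.751). No member was called for a difference in change at 3 h or 6 h, where 0.0585% and 0.284% of all genes were called, and 3 members had an unadjusted p below 0.05 at each time. With the block 1 member was called at 3 h, Tbx21, and 2 at 6 h, Cd7 and Tbx21.

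TAK1-deleted cells had lower levels of 15 members at 3 h (1.7% of all genes called lower, 2.71% in either direction) and of 8 at 6 h (1.6% and 2.53%). Tbx21 differed most at both times, with −1.78 ± 0.12 (adjusted p = 5.53e-07) and then −1.57 ± 0.12 (adjusted p = 2.3e-06). Eomes differed by −1.25 ± 0.21 and −1.30 ± 0.21, and Ncr1 by −1.30 ± 0.30 and −1.22 ± 0.30. Cd3g, Eomes, Klrd1, Klrk1 and Tbx21 were lower at 0, 1, 3 and 6 h, and 27 members at 1 or more of these times. The members lower at none of these times were Cd2, Cd3e, Cd4, Gzma and Id2. The shares of all genes with such patterns are not given here.

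These counts were sensitive to the fit. With the filter on the mean over all arrays they were 12 of 29 members tested at 3 h and 7 of 29 at 6 h. At 3 h the count was 27 with the replicate block and 9 with no filter on dim probe sets. A fit of the 4 arrays compared alone gave 2. It was 6 without wild type replicate 1 and 3 without wild type replicate 2 or without TAK1-deleted replicate 2. At 6 h it was 22 with the replicate block, 15 after quantile normalization, 13 in a fit of the 4 arrays alone, and 2 to 4 with any 1 of those arrays left out. Tbx21 kept its call with each array left out at both times, and Cd3g did so at 3 h.

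**Figure D4:**
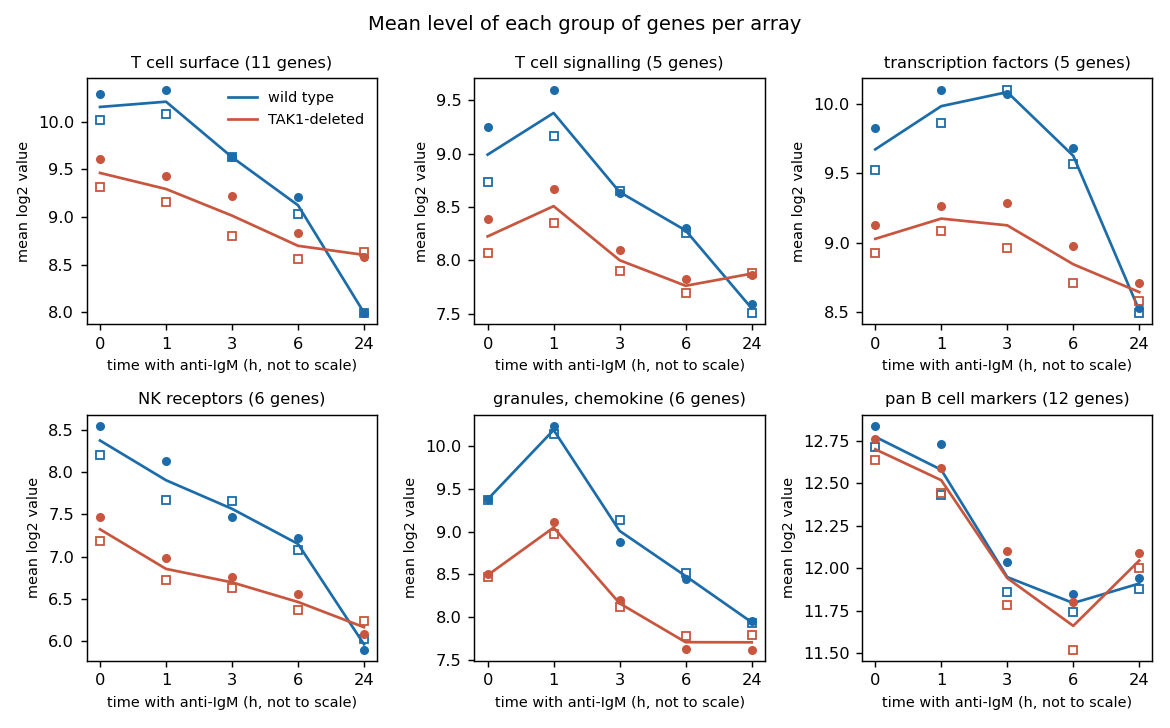
Mean log2 value per array over the members of each role (11 T cell surface molecules, 5 signalling proteins, 5 transcription factors, 6 NK receptors, 6 granule and chemokine genes) and over 12 pan B markers, against hours of anti-IgM, with circles for replicate 1, squares for replicate 2 and lines through their mean. In the T cell surface panel the wild type arrays end at 8.00 and 7.99 and the TAK1-deleted arrays at 8.58 and 8.63, while for NK receptors both genotypes end near 6.

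By 24 h nearly the whole list had fallen in wild type cells. Of 32 members, 31 were below their 0 h level, where 20.2% of all genes were called lower, and Xcl1 was above it (23.6% called higher, 43.8% in either direction). The median change over the members was −1.90, against 0.07 over all genes. All 32 calls held with each of the 4 arrays left out in turn. The mean of the 33 members was 7.63 in both arrays, down from 9.58 and 9.30, and 13 members had a wild type mean below 7.45, the median of all values in the data, against 1 at 0 h.

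In TAK1-deleted cells 18 members were below their 0 h level at 24 h (12.7% of all genes called lower, 27.6% in either direction). All 18 were also lower in wild type, where 31 of 32 members were, so this overlap adds little. The median change was −0.70. The mean of the 33 members went from 8.76 and 8.53 at 0 h to 7.86 and 7.92. From 6 h to 24 h the median step was −0.89 in wild type, with 32 of 33 group means falling, and −0.11 in TAK1-deleted cells, with 19 of 33 lower. The lowest group mean stood at 24 h for 32 of 33 members in wild type and for 14 of 33 in TAK1-deleted cells. These steps are descriptions with no test.

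Cd7 had the largest wild type change. It read 11.73 and 11.64 at 0 h and 7.82 and 7.89 at 24 h in wild type (−3.83 ± 0.18, adjusted p = 2.14e-10), and 11.26 and 11.07 against 9.50 and 9.31 without TAK1 (−1.76 ± 0.18, adjusted p = 1.76e-06). Klrd1 read 6.30 and 6.13 at 24 h in wild type (−3.39 ± 0.20) and 7.35 and 7.25 in TAK1-deleted cells (−1.17 ± 0.20). For both genes the TAK1-deleted arrays, lower at 0 h, were the higher ones at 24 h. Ncr1 ended at 6.22 and 6.37 in wild type (−3.82 ± 0.30) and at 6.41 and 6.46 in TAK1-deleted cells (−2.49 ± 0.30). Cd2 ended at 8.72 and 8.71 and at 8.91 and 8.83, after falls of 3.13 ± 0.13 and 2.69 ± 0.13. Klrb1c ended at 5.52 and 5.59 and at 5.42 and 5.66. The differences between genotypes at 24 h for Ncr1, Cd2 and Klrb1c were 0.14 ± 0.30, 0.16 ± 0.13 and −0.01 ± 0.17, none of them called.

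The other 13 of the 31 members that fell in wild type at 24 h were not called in TAK1-deleted cells. This count follows from those of the 2 genotypes, and the share of all genes with this pattern is not given here. Cd28 read 7.42 and 6.96 in wild type at 24 h (−1.94 ± 0.23) and 8.46 and 8.42 in TAK1-deleted cells (0.08 ± 0.23). Id2 read 10.95 and 10.63 in wild type, from 12.09 and 12.08 (−1.29 ± 0.17), and 12.28 and 11.89 in TAK1-deleted cells, from 11.87 and 11.78 (0.26 ± 0.17). Cd3e fell by 2.28 ± 0.34 in wild type and read −0.60 ± 0.34 without TAK1. Lat, the adaptor that links the T cell receptor to downstream enzymes, fell by 1.85 ± 0.19 in wild type and read −0.34 ± 0.19. In TAK1-deleted cells the changes of Id2, Cd3e and Lat were called with the replicate block.

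The difference in change at 24 h was tested directly, and 20 of the 32 members fell less, or did not fall, in TAK1-deleted cells, where 4.62% of all genes were called in that direction and 8.66% in either. No member was called in the other direction, where 2 had an unadjusted p below 0.05. Xcl1 was called in that direction with the replicate block (28 higher, 1 lower) and with the arrays of the compared groups alone (19 higher, 1 lower). The 20 comprised 9 of 11 T cell surface molecules, 4 of 5 signalling proteins, 2 of 5 transcription factors, 3 of 5 NK receptors and 2 of 6 granule genes. Klrb1c, 1 of these NK receptors, passed the filter on dim probe sets through wild type arrays alone. With the filter on the mean over all arrays 18 of 29 members tested were called. Of the 20, 11 were already called lower in TAK1-deleted cells at 0 h. The difference in change equals the genotype difference at 24 h minus that at 0 h, so a lower start enters it by construction. The median genotype difference over the members was −0.88 at 0 h and 0.26 at 24 h. Whether the lower start itself limited the fall was not tested. At 24 h 13 of 33 members in wild type and 12 of 33 in TAK1-deleted cells had a mean below 7.45. The median difference in change was 1.13 over all 32. It was largest for Klrd1 (2.21 ± 0.28, adjusted p = 0.000156), Cd7 (2.07 ± 0.25, adjusted p = 0.000113) and Cd28 (2.02 ± 0.33, adjusted p = 0.000916). Cd3g followed with 1.64 ± 0.21, having gone from 10.54 and 10.52 to 8.42 and 8.36 in wild type and from 9.43 and 9.35 to 8.82 and 8.97 without TAK1. The count was 13 without TAK1-deleted replicate 2 at 24 h. Of the 20 genes, 13 were called with each of the 8 arrays left out, among them Cd3d, Cd3g, Cd28, Cd7, Lat, Bcl11b, Id2 and Klrd1.

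The level at 24 h itself was higher in TAK1-deleted cells for 8 members and lower for 2 (7.04% and 5.18% of all genes, 12.2% in either direction). The 8 were Cd7 (1.55 ± 0.18, adjusted p = 3.29e-05), Id2 (1.29 ± 0.17), Cd28 (1.25 ± 0.23), Klrd1 (1.09 ± 0.20), Cd4 (0.99 ± 0.24), Lat (0.72 ± 0.19), Cd3g (0.50 ± 0.15) and Bcl11b (0.46 ± 0.13), the last a transcription factor of T cell commitment. All 8 are among the 20 whose change differed, and the comparisons share the arrays at 24 h. For the other 12 of the 20 no difference in level at 24 h was called. Leaving out wild type replicate 2 or either TAK1-deleted array gave a count of 6 instead of 10, and the calls that held throughout were those of Cd28, Cd7, Tbx21, Id2, Klrd1 and Xcl1.

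Xcl1 and Tbx21 were the 2 members with lower levels in TAK1-deleted cells at 24 h. In wild type Xcl1 read 8.64 and 8.98 at 0 h and 10.22 and 9.94 at 24 h (1.27 ± 0.23, adjusted p = 0.000323). In TAK1-deleted cells it read 7.96 and 8.19 at 0 h and 8.37 and 8.46 at 24 h (0.34 ± 0.23, not called), which left it 3.17-fold lower than wild type (−1.66 ± 0.23, adjusted p = 0.000195). The difference in its change, −0.93 ± 0.33, was not called (limma, adjusted p = 0.104), and was with the block (adjusted p = 0.00514, range over the alternatives 0.00514 to 0.311). Tbx21 ended at 8.84 and 8.80 in wild type and 7.51 and 7.56 in TAK1-deleted cells (−1.28 ± 0.12, adjusted p = 5.4e-06). It was the 1 member lower in TAK1-deleted cells at all 5 times.

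Gzmb ended at 6.84 and 6.73 in wild type and at 6.63 and 7.10 without TAK1, and these arrays overlapped. Cd8a and Cd8b1, which encode the chains of the CD8 coreceptor and are neighbours on chromosome 6, fell by 2.21 ± 0.21 and 1.86 ± 0.17 in wild type. In TAK1-deleted cells Cd8a fell by 1.36 ± 0.21, while Cd8b1 read −0.48 ± 0.17 and was just short of a call (limma, adjusted p = 0.0505), which it passed with the replicate block.

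Further T and NK cell genes outside the list moved at 24 h as well. In wild type 14 of 16 T cell genes and 9 of 12 NK cell genes were lower than at 0 h, with 2 and 1 higher. In TAK1-deleted cells 4 and 8 were lower, with 2 and 4 higher. Between the genotypes at 24 h, 6 of 16 T cell genes and 5 of 12 NK cell genes were higher without TAK1 and 1 T cell gene lower. They included Fyb, an adaptor of T cell receptor signalling (1.31), Cd96 (1.02), Klri1, an NK lectin-like receptor (1.48), and Ccl5, a chemokine of activated T and NK cells (1.00). Ccl5 fell by 0.58 in wild type and rose by 1.36 in TAK1-deleted cells.

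Genes of other cells also moved at 24 h. In wild type all 13 monocyte or macrophage genes were lower at 24 h than at 0 h, with list means of 8.55 and 8.50 against 10.99 and 11.10, and 12 of 13 neutrophil genes were lower (7.13 and 7.17 against 9.16 and 9.05). In TAK1-deleted cells the monocyte or macrophage means were 10.06 and 9.93 at 24 h and the neutrophil means 8.87 and 8.84. Between the genotypes at 24 h, 11 of 13 monocyte or macrophage genes, 12 of 13 neutrophil genes and 4 of 8 dendritic cell genes were higher without TAK1. The largest dendritic cell differences were those of Siglech (2.07) and Ccr9 (1.93). Erythroid means, which differed at 0 h, were 7.30 and 7.23 against 7.07 and 7.24. Pan B means were 12.09 and 12.00 against 11.94 and 11.88, with 3 of 12 genes called higher. The part of these cells, and of the share of B cells, in the T and NK cell differences was not tested.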

How the data were processed

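The authors' deposited values are log2 values, per the labels' processing tools made with RMA in Affymetrix Expression Console (version 1.0). The build behind the probe sets is not given in the sources used here. RMA keeps some background in each value, so differences from dim groups can be too small, and with 2 arrays in each group the precision is limited.

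The table of 35556 probe sets on 20 arrays (array medians 7.37 to 7.52) was not normalized further. In the platform annotation 21789 probe sets have 1 gene symbol, 1621 have several, and 12146 do not appear. Gene IDs matched 21698 of them, and 0 symbols changed. A gene was represented by its brightest probe set and tested if that reached 7.45 (the median over the whole table) on 2 or more arrays. A limma model (version 3.58.1, R 4.3.3) of the 10 group means used every array, with moderated variances that followed intensity (10 residual degrees of freedom, prior 5.47). Tests were two-sided, in 17 contrasts, with Benjamini-Hochberg adjustment over 11968 genes in each contrast, and a gene was called below 0.05. Errors are standard errors of this model, with a median of 0.161 for a group difference. The script was tested on simulated data.

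Samples of every group are numbered 1 and 2 in the labels. Deviations from the group mean correlated between same-numbered samples in all 45 pairs of groups (lowest r 0.191, median 0.535). The r was computed across genes, which are not independent. The numbers were therefore taken to pair the samples in the fit with the replicate block, which is an alternative. The main fit has no term for this pairing, so its standard errors and calls ignore it. A member not called in the main fit can be called with the block. Between the replicates of a group r was 0.979 to 0.994, and no arrays were merged.

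Members and gene lists were chosen with earlier results of these data known. Values of single arrays are given by rule for the called members with the largest changes at 0 h and 24 h and for Cd3e, Klrb1c, Ncr1, Gzmb and Id2. Others shown were chosen after their values were seen. Alternatives were the filter, the normalization, the probe set rule, the variance trend, the arrays in the model, the replicate block and leaving out each array.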

Additional observations from a re-analysis of the deposited data

Results flagged for a closer look

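The change from 0 h to 24 h of anti-IgM differed between the genotypes in 20 of the 32 members tested, by a test of the difference itself (limma, adjusted over all genes). Values here are the TAK1-deleted change minus the wild type change on the log2 scale. Among T cell surface molecules they were 2.07 for Cd7, 2.02 for Cd28, 1.68 for Cd3e, 1.64 for Cd3g, 1.38 for Cd8b1, 1.28 for Thy1, 1.18 for Cd4, 0.95 for Cd3d and 0.82 for Cd247. The adjusted p ranged from 0.000113 for Cd7 to 0.0452 for Cd4.

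Among signalling proteins the difference was 1.51 for Lat, 1.31 for Themis, a regulator of T cell receptor signals in the thymus, 1.16 for Txk and 0.75 for Skap1, an adaptor of integrin activation in T cells. The transcription factors Id2 and Bcl11b had values of 1.55 and 0.91. The NK receptors Klrd1, Klrk1 and Klrb1c had values of 2.21, 1.44 and 1.36, and the granule genes Ctsw and Gzmb values of 1.68 and 1.10. All 20 genes were called lower at 24 h than at 0 h in wild type cells, as were 31 of the 32 members tested. Of the 20, 11 were called lower in TAK1-deleted cells than in wild type at 0 h, and this lower start enters the difference by construction. For 12 of the 20 no difference between the genotypes was called at 24 h.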

How the results depend on the processing

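Over all alternatives run no called member changed direction, and in every contrast the median over the members stayed within the spread between replicates. Counts of called members moved by more than 1.5 times as follows, and the cause was not tested. After quantile normalization the count was 16 for wild type at 1 h, 24 for the genotype difference at 0 h, 15 for it at 6 h and 1 for the difference in change at 3 h. With the replicate block, which uses the pairing of the numbers, it was 18 for wild type and 15 for TAK1-deleted cells at 1 h. For the genotype difference it was 28 at 0 h, 27 at 3 h and 22 at 6 h, and for the difference in change 1 at 3 h and 2 at 6 h. The block moved no other count by that much and ended no member's call. Without the filter on dim probe sets the genotype count at 3 h was 9, and with the arrays of the compared groups alone it was 2 at 3 h and 13 at 6 h. With 1 array left out at a time the count ran from 11 to 17 for wild type at 3 h, from 4 to 19 for the genotype difference at 0 h, 12 to 23 at 1 h, 3 to 12 at 3 h, 2 to 4 at 6 h and 6 to 7 at 24 h, and from 13 to 23 for the difference in change at 24 h. A group reduced to 1 array was assumed to vary like the other groups. Scaling moved the median of all genes by at most 0.06.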
